A study of Mus musculus with 4 samples.

Results

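Foxl1, Sox6, Sox9, Prrx1, Ebf2, Wt1, Foxs1, Hoxc9, Hand1 and Id2 are transcription factors and regulators of lineage, and they were followed by name across the fibroblast subtypes of the mouse small intestine. All 10 had a row among the 3891 gene rows read. The sort kept stromal cells with PDPN (gp38), a surface protein of intestinal fibroblasts, and removed cells with CD45, EpCAM or CD31, which mark leukocytes, epithelium and endothelium. The tissue was small intestine from wild type C57Bl/6 mice aged 8 weeks, with no treatment named in the labels. They were profiled as 2 10X Genomics libraries, called library 1 (2547 cells) and library 2 (14344 cells), and 2 Smartseq2 plates whose integrated values are not used here. How many mice gave each library is not stated in the sources used here, so that p-values measure only the spread between these 2 libraries, which may be technical.

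Transcription factors bind DNA and set which genes a cell transcribes, and a few of them can hold a cell in its lineage. Forkhead proteins such as Foxl1 and Foxs1 bind DNA through a winged helix, Sox proteins through an HMG box, Prrx1 and Hoxc9 through a homeodomain, Ebf2 and Wt1 through zinc-coordinating domains and Hand1 through a basic helix-loop-helix. Id2 has a helix-loop-helix but no basic region, and it holds other helix-loop-helix proteins off the DNA. In the gut mesenchyme, Foxl1 is known as a marker of telocytes, the subepithelial cells that send Wnt and BMP signals to the epithelium, and Wt1 as a marker of the mesothelium that covers the organ. Few mRNA copies per cell are usual for transcription factors, so that a cell with 0 unique molecular identifiers (UMIs) of a gene may still express it.

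Cells were put into 7 classes by genes that are not among the 10 factors. Cells with a UMI of both Bmp7 and Pdgfra were subepithelial, and were divided into a Wif1 side (108 and 806 cells in library 1 and library 2), an Adamts18-positive class without Wif1 (18 and 176 cells) and an Adamts18-negative class without Wif1 (198 and 1844 cells). Only 4 cells, all in library 2, held both Wif1 and Adamts18, and they stayed on the Wif1 side. Of the other cells, those with at least 3 of Inmt, Penk, Vit and Scara5 formed the Inmt/Penk class (324 and 1083 cells), and those with at least 3 of Chodl, Dner, Thbs2 and Ptn the Fibin type (97 and 679 cells). The rest were a crypt class with Grem1 (1011 and 4790 cells) or a villus class with Lpl (599 and 3630 cells), and 192 and 1336 cells fell in no class.

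Marker genes that the rule did not use fitted most of these names. Ednrb, Bmp5 and Acta2 were highest in subepithelial classes, Fibin, Fxyd6 and Kcnn3 in the Fibin type, and Adamdec1, Igfbp3 and Fgfr2 in the villus class. The cells with Inmt, Penk, Vit and Scara5 carry the name mesothelial-like, but the mesothelial genes Msln, Upk1b and Lrrn4 were at 0 there in both libraries, and Upk3b, Krt19 and Krt8 were each in at most 1.02% of the cells. The crypt markers Ackr4, Prss23 and C3 were higher there than in the crypt class, while of the 3 genes listed for this class Gpc3 (2.19 and 3 UMIs per 10,000) and Igfbp6 (6.71 and 7.91) were highest in it and Gdf10 was higher in the Fibin type. These cells are therefore called the Inmt/Penk class. Median totals per cell ran from 5893.5 UMIs (villus class, library 2) to 12106 UMIs (Wif1 side, library 1), and 7 cell barcodes occurred in both libraries. Shares of cells are therefore given also with the factor counts of each cell thinned to a total of 2000 UMIs. Cells under 2000 UMIs were left out of these shares, and the classes stayed those of full depth. Intervals on shares are exact 95% Clopper-Pearson intervals, and they cover counting error only.

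The upstream sequences of 3 of the 10 factors were at hand in RefSeq (GRCm38.p6), each from 250 bases before to 50 bases after an annotated start, and they stand here for the 3 patterns that follow: Prrx1 for the Inmt/Penk class, Sox6 for the subepithelial cells and Id2 for a factor found in all classes. All 3 genes lie on the minus strand, Prrx1 at chr1:163313601-163313900, Sox6 at the most upstream of its annotated starts at chr7:116038695-116038994 and Id2 at chr12:25096043-25096342. Both strands were searched for 7 motifs, and matches to 6 of them are in capitals. Sox proteins are known to bind AACAAT. The forkhead motif was searched for with the letters TGTTTAC. For homeodomain proteins the palindrome TAATTA was taken. The TATA box was searched for as TATAAA. The GC box was given the letters GGGCGG, and an Ebf palindrome was also searched for. The E box of helix-loop-helix proteins, CANNTG, which 72.3% of promoters of this length held, is left in lower case.
Prrx1: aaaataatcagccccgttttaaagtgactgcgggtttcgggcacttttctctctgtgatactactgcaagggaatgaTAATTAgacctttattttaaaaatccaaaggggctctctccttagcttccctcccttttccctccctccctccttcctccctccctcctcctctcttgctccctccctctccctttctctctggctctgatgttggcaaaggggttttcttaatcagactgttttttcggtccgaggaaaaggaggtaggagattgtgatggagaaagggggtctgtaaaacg
Sox6: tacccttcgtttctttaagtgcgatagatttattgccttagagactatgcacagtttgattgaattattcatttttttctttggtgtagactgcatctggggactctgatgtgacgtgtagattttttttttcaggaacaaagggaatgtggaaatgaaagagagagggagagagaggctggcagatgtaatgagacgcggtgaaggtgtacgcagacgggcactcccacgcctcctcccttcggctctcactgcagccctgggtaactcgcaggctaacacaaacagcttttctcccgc
Id2: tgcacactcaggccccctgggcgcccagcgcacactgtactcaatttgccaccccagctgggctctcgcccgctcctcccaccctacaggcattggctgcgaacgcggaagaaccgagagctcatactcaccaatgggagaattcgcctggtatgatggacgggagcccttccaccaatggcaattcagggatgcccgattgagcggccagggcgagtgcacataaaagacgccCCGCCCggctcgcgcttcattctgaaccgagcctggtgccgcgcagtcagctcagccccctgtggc
The Prrx1 window held 1 homeodomain motif, which 5.29% of 32851 RefSeq promoters of this length held. The Id2 window held 1 GC box, as did 35.7% of the promoters, and the Sox6 window held none of the motifs in capitals. RefSeq gives 6 start windows for Sox6, and of the 5 not printed 1 held 2 matches to the Sox motif, 1 held 4 GC boxes, 2 held 1 TATA box each and 1 held none of these 6 motifs. The E box matched 2 times in the Sox6 window, 1 time in the Id2 window and not in the Prrx1 window. The guanine and cytosine content was 47.7% for Prrx1, 47% for Sox6 and 63.3% for Id2. A match is a description of these letters and not a site that was shown to be bound.

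Foxl1, Sox6 and Foxs1 were detected mainly in subepithelial cells, Prrx1, Ebf2 and Wt1 in the Inmt/Penk class, and Sox9, Id2 and Hoxc9 across all classes. Hand1 was nearly absent from every class. For 9 of the 10 factors, the class with the highest share of cells with a UMI was the same in both libraries, Hoxc9 being the exception. The plot of the share of cells with a UMI by class shows these patterns for each library.

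**Figure D1:**
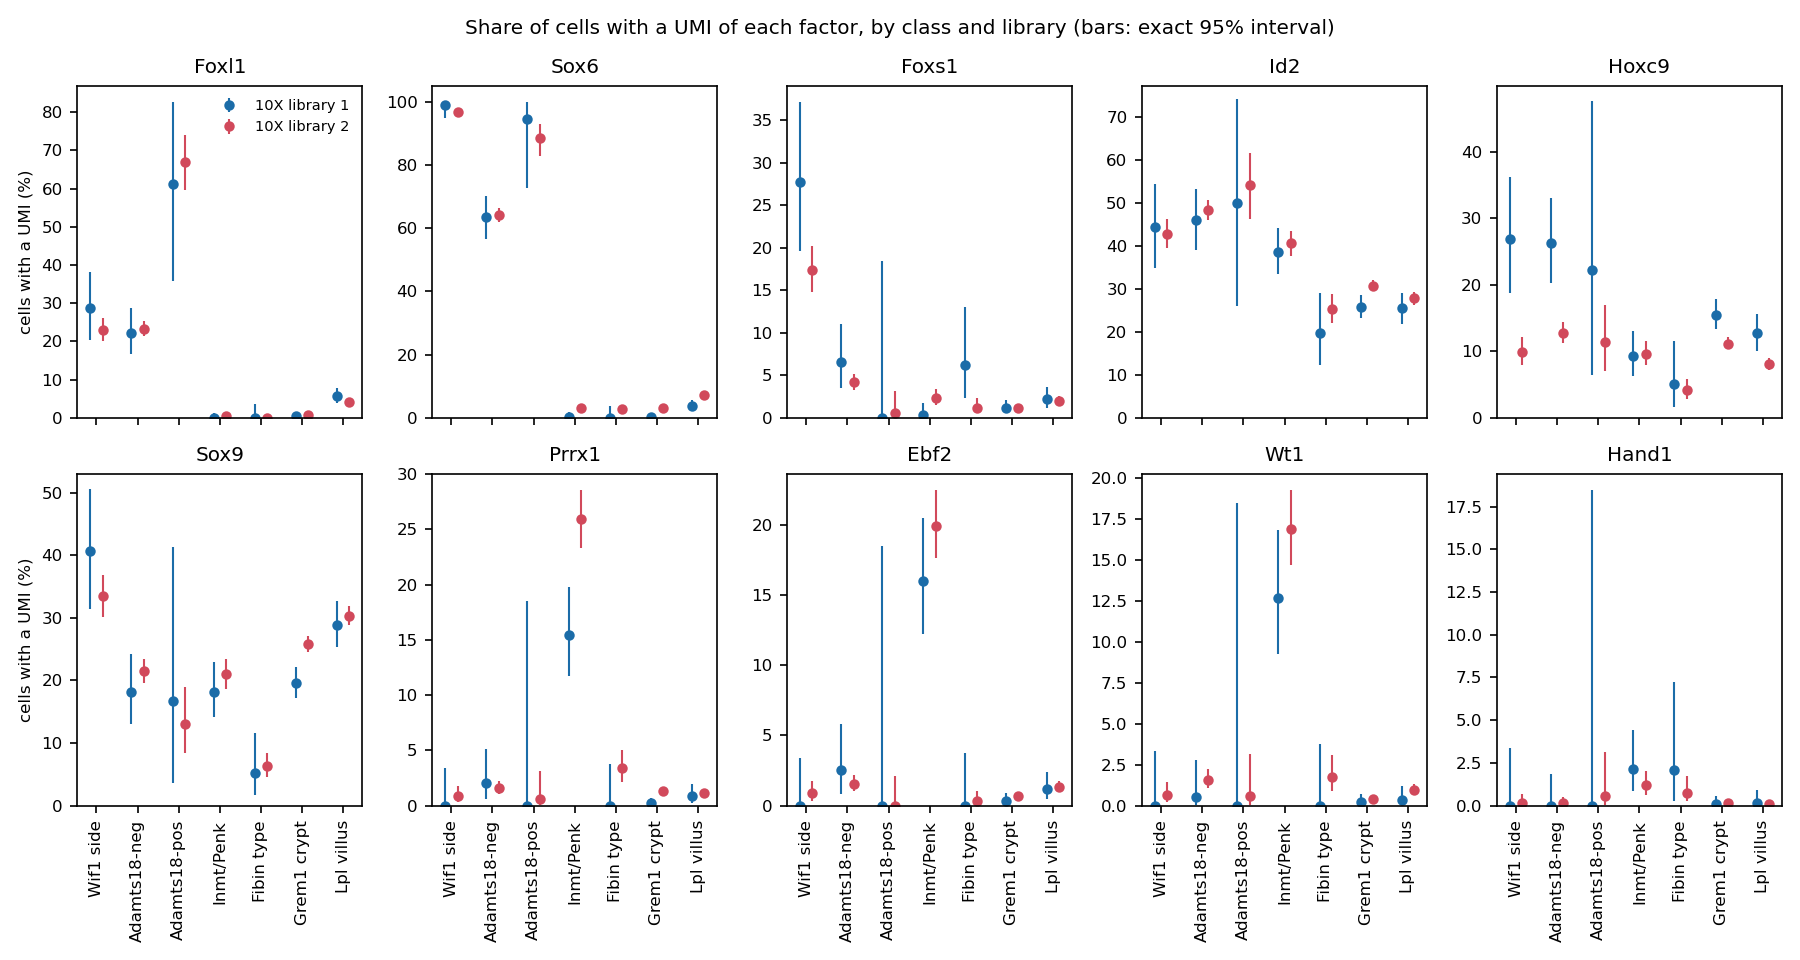
Share of cells with a UMI (percent, y axis) of each of the 10 factors in the 7 classes (x axis). Points are the libraries and bars are exact 95% intervals. Foxl1 reaches 61.1% and 67% in the Adamts18-positive class, and Prrx1, Ebf2 and Wt1 stand out in the Inmt/Penk class.

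The first question was which factors mark the subepithelial cells as a whole. Sox6, Foxl1, Id2, Foxs1 and Hoxc9 were higher in the mean of the subepithelial classes than in that of the other fibroblasts, whereas Ebf2, Wt1 and Prrx1 were lower, and in the other fibroblasts these 3 were found mainly in the Inmt/Penk class. Foxs1 was not high in every subepithelial class. It was high on the Wif1 side (0.312 and 0.232 UMIs per 10,000), and the Adamts18-positive class (0 and 0.00564) was the lowest of all 7 classes. Sox9 did not differ by the test. Hand1, with a UMI in at most 1.42% of the cells of a class over both libraries, did not reach the 5% of cells required for the test, so that 9 of the 10 factors were tested. Prrx1, Ebf2 and Wt1 reached it in the Inmt/Penk class only, Foxs1 on the Wif1 side only and Foxl1 in subepithelial classes only. These 5 entered the test through the classes where they are high, so that counts of members called are in part set by this filter and are given as a description. Of these 9, 8 were called at an adjusted p of 0.05, 5 higher and 3 lower, in a comparison in which 75.2% of the 1970 genes tested were called, 41.6% higher and 33.7% lower. In simulated cells 11.7% of the calls of this comparison were false. The test was limma on natural log values averaged within each class of each library, with Benjamini-Hochberg adjustment over all genes tested, and differences are given in natural log units of UMIs per 10,000. Each class weighed the same in a comparison whatever its number of cells, so that these differences are not those of pooled cells.

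Sox6, an HMG box factor of cartilage and muscle development, reached 4.65 and 4.11 UMIs per 10,000 over all subepithelial cells of library 1 and library 2, and 0.0653 and 0.179 over the other fibroblasts. It had a UMI in 77.2% and 75.1% of the subepithelial cells against 1.38% and 4.54% of the others. The groups did not overlap, and the ratio of the levels was 71.3 in library 1 and 22.9 in library 2. The difference was 1.42 ± 0.13 (SD of 2 libraries; limma, adjusted p = 1.31e-09). After thinning to 2000 UMIs, 54.9% and 48.2% of subepithelial cells and 0.7% and 2.37% of the others kept a Sox6 UMI. Among cells with at least 3 immune markers, 1 of 9 in library 1 held a Sox6 UMI. In library 2, 3.85% of 78 such cells (median 5062 UMIs) did. Of these immune-marker cells, 1 in library 1 and 6 in library 2 were themselves in a subepithelial class. Over both libraries, 36 of 87 were in a fibroblast class. They are therefore not a set that should lack Sox6, and whether Sox6 shares of a few percent are background was not tested.

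Foxl1, the telocyte factor, stood at 0.334 and 0.464 UMIs per 10,000 in subepithelial cells and 0.0289 and 0.0347 in the other fibroblasts. The subepithelial levels were 11.5 and 13.4 times those of the other fibroblasts. With each class weighing the same, the difference was 0.33 ± 0.06 natural log units (SD of 2 libraries, limma adjusted p = 6.3e-07). Over the pooled cells the mean natural log values were 0.205 and 0.25 against 0.0168 and 0.019, which lie closer together. Foxl1 had a UMI in 26.5% and 25.9% of the subepithelial cells, against 1.97% and 1.95% of the others. In the Fibin type no cell had a Foxl1 UMI, 0 of 97 and 0 of 679 cells, which allows shares of up to 3.09% and 0.442% by the limit of 3 counts that is used in the text for a count of 0. The exact intervals, which the plot by class shows, reach 3.73% and 0.542%. Foxl1 was nearly as rare in the Inmt/Penk class, with 0 of 324 and 6 of 1083 cells. In GENCODE M21, Foxl1 shares its strand and position with the gene model Gm20388, so that reads of the overlap may be missing from its values.

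Id2 differed less but in the same direction in both libraries, with 1.69 and 1.93 UMIs per 10,000 in subepithelial cells against 0.764 and 0.924 elsewhere. The difference was 0.29 ± 0.03 (SD of 2 libraries; limma, adjusted p = 6.9e-07). Foxs1, known from pericytes and other perivascular cells, differed by 0.06 ± 0.01 (adjusted p = 0.000306). Hoxc9, a homeobox gene of positional identity along the body axis, differed by 0.08 ± 0.07 (adjusted p = 0.00545), but its difference was 0.12 in library 1 and 0.03 in library 2, so that library 1 carried most of it. Ebf2, Wt1 and Prrx1 differed by -0.06, -0.04 and -0.06 (adjusted p = 7.02e-06, 4.31e-05 and 0.00504).

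Of the 98 other transcription factors listed for comparison, 55 were in the table and 41 were tested. In this comparison 21 of the 41 were higher and 15 lower in subepithelial cells, with a median difference of 0.04 against 0.01 for all genes. Tcf4, a basic helix-loop-helix E protein, was higher by 1.46, and Sox4, another Sox factor, by 0.80. Meis2, a homeodomain partner of Hox proteins, differed by -0.62 and Maf, a leucine zipper factor, by -0.59. The genes with the pattern most like that of Sox6 over the 14 library and class means were Lmo7, Adam19 and Tspan13 (Pearson r = 0.997, 0.997 and 0.99). For Foxl1 they were Prom1, Eva1a and Tox (r = 0.988, 0.986 and 0.986). These correlations describe class means that share cells and libraries and were chosen as the highest of 1970.

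The second question was how the factors divide the subepithelial cells. Foxl1 marked the Adamts18-positive class, Sox6, Sox9 and Foxs1 were highest on the Wif1 side, and Foxs1 was nearly absent from Adamts18-positive cells. On the Wif1 side against the mean of both Wif1-negative classes, Sox6, Sox9 and Foxs1 were higher and Foxl1 and Id2 lower, 5 of the 9 factors tested, in a comparison in which 25.8% of genes were called, 15.1% higher and 10.7% lower. The plot of mean levels in the subepithelial classes gives these values by library.

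**Figure D2:**
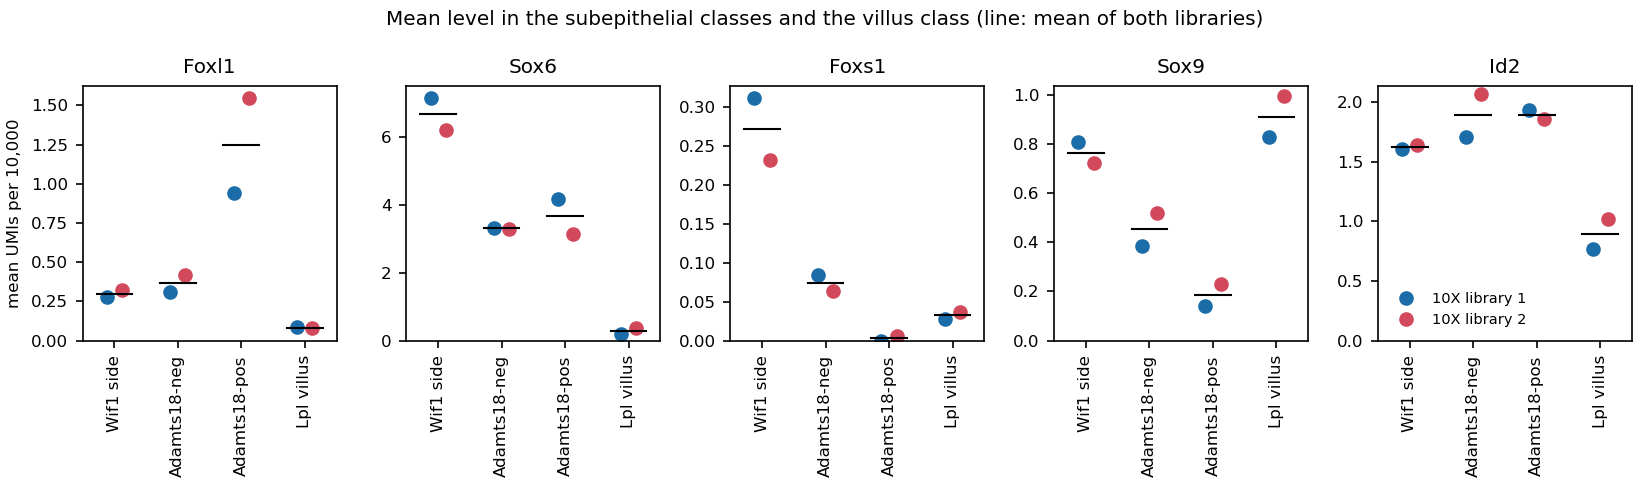
Mean UMIs per 10,000 (y axis, one scale per gene) of 5 factors in the 3 subepithelial classes and the villus class (x axis). Points are the libraries and lines their mean. Foxl1 is highest in the Adamts18-positive class (0.94 and 1.55) and Foxs1 on the Wif1 side (0.312 and 0.232).

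Foxl1 had a UMI in 11 of 18 Adamts18-positive cells in library 1 (61.1%, interval 35.7 to 82.7%) and in 118 of 176 in library 2 (67%, 59.6 to 73.9%). The Adamts18-negative class held it in 22.2% and 23.3% of cells and the Wif1 side in 28.7% and 23%. These 2 classes overlapped in level (0.31 and 0.421 against 0.275 and 0.325 UMIs per 10,000), whereas the Adamts18-positive class lay above both at 0.94 and 1.55. Against the Adamts18-negative class, Foxl1 was 3.03 and 3.67 times higher, a difference of 0.44 ± 0.11 natural log units (SD of 2 libraries; limma, adjusted p = 6.64e-05). It was 1 of 2 factors called in this comparison, both higher, while 26.5% of genes were called, 15.3% higher and 11.2% lower. On the log2 scale the split was 1 higher, Foxl1, and 3 lower, Sox9, Foxs1 and Ebf2 (adjusted p = 0.00396, 0.012 and 0.0134). In simulated cells 16.7% of the calls of this comparison were false. Foxl1 passed in all 8 alternative fits, but in cells of 5000 to 10000 UMIs and with 2 UMIs required of each class gene library 1 kept 5 and 8 Adamts18-positive cells, under the minimum of 10, so that these 2 fits rest on library 2 alone for that class. At 2000 UMIs per cell, 16.7% and 21.7% of Adamts18-positive cells and 5.05% and 7.54% of Adamts18-negative cells kept a Foxl1 UMI. The summed level of 6 smooth muscle markers was higher as well, at 7.31 and 7.76 UMIs per 10,000 in Adamts18-positive cells against 3.63 and 3.31 in Adamts18-negative cells. Myh11 made up most of it (6.42 and 4.53 against 3.45 and 3.01). Not every marker was higher, since Cnn1 was at 0 in Adamts18-positive cells of both libraries and Lmod1 and Myocd were at 0 in those of library 1. Their part in the result was not tested.

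Foxl1 was also found in cells without an Adamts18 UMI. By count, the Adamts18-negative class held 44 and 430 Foxl1-positive cells, more than the 11 and 118 of the smaller Adamts18-positive class. Adamts18 itself stood at only 2.77 and 3.06 UMIs per 10,000 in the Adamts18-positive class. Cells that express it may therefore lie in the Adamts18-negative class, and the split cannot show whether Foxl1 is restricted. Of the 4 cells with both Wif1 and Adamts18, 3 held Foxl1. On the Wif1 side Foxl1 was lower than the mean of both other subepithelial classes by 0.24 ± 0.08 (limma adjusted p = 0.00113), a mean in which the Adamts18-positive class weighs as much as the larger Adamts18-negative class. Outside the subepithelial cells, Foxl1 was found in 5.68% and 4.21% of the villus class and in 0.593% and 0.835% of the crypt class. Immune-marker cells held Foxl1 in 0 of 9 and 2 of 78 cells (2.56%, interval 0.312 to 8.96% in library 2). The villus shares lie within that interval. Because some immune-marker cells were in subepithelial classes, this does not show whether the villus shares are background.

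Sox6 had a UMI in nearly every cell of the Wif1 side, 99.1% and 96.9%, and in 63.6% and 64.3% of the Adamts18-negative class. Its level was 7.16 and 6.21 UMIs per 10,000 on the Wif1 side against 3.33 and 3.29 and, in the Adamts18-positive class, 4.18 and 3.14. The Wif1 side lay above both other classes in each library, with a difference of 0.70 ± 0.03 (SD of 2 libraries; limma, adjusted p = 3.17e-05). Between the Adamts18-positive and the Adamts18-negative class the levels overlapped. More Adamts18-positive cells held a UMI, 94.4% and 88.6%, and the mean natural log value was higher by 0.27 ± 0.17 (limma adjusted p = 0.0254). This call was lost in 4 of 8 alternative fits: with no filter on low values, on these classes alone, on the log2 of the mean level and in cells of 5000 to 10000 UMIs the adjusted p was above the threshold (range of the alternatives 0.011 to 0.757), and with 2 UMIs required of each class gene the difference reversed to -0.34. It held in the other 3. In the last of these fits and in that of cells of 5000 to 10000 UMIs, library 1 had too few Adamts18-positive cells (8 and 5) and was dropped from this class.

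Foxs1 had a UMI in 27.8% and 17.4% of the Wif1 side, 6.57% and 4.18% of the Adamts18-negative class, and 0 of 18 and 1 of 176 cells of the Adamts18-positive class. On the Wif1 side its level, 0.312 and 0.232 UMIs per 10,000, was 3.69 and 3.66 times that of the Adamts18-negative class. The groups did not overlap, Foxs1 having passed the filter on the Wif1 side only, and the difference from both Wif1-negative classes was 0.15 ± 0.04 (SD of 2 libraries; limma, adjusted p = 4.14e-05). Between the Adamts18-positive and Adamts18-negative classes it was -0.04, which did not pass the test (adjusted p = 0.0953, 0.012 to 0.556 in the alternatives). The 18 Adamts18-positive cells of library 1 allow a share of up to 16.7%, so that a share such as that of the Adamts18-negative class was not detectable as different there at this depth.

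Because Foxs1 is known from pericytes, 5 pericyte markers of the table were summed. The sum was 9.44 and 11.5 UMIs per 10,000 on the Wif1 side, 12.4 and 14.1 in the Adamts18-negative class and 10.2 and 8.54 in the Adamts18-positive class. The members of this sum differed in opposite ways. Kcnj8 was at 2.98 and 2.65 UMIs per 10,000 on the Wif1 side against 1.65 and 1.24 in the Adamts18-negative class, and Abcc9 at 4.53 and 5.27 against 2.27 and 2.34. Both were also above the Adamts18-positive class. Rgs5 was at 0.325 and 1.67 on the Wif1 side against 6.9 and 8.72 in the Adamts18-negative class. Cspg4 was highest in the Adamts18-positive class, at 2.96 and 3.48 against 1.6 and 1.9 on the Wif1 side. Notch3 was in 0.926% and 0.496% of the cells of the Wif1 side and in 4.55% and 2.01% of the Adamts18-negative class. The part of these genes in the Foxs1 result was not tested.

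Sox9, an HMG box factor of progenitors and cartilage, was found in 40.7% and 33.5% of the Wif1 side, 18.2% and 21.5% of the Adamts18-negative class and 16.7% and 13.1% of the Adamts18-positive class. The levels, 0.808 and 0.723, 0.385 and 0.521, and 0.142 and 0.23 UMIs per 10,000, did not overlap between these 3 classes. The Wif1 side was higher by 0.22 ± 0.07 (SD of 2 libraries; limma, adjusted p = 0.000451). The step from the Adamts18-negative to the Adamts18-positive class, -0.09 ± 0.02, did not pass the test (adjusted p = 0.0795, 0.00396 to 0.269 in the alternatives). Over all 7 classes the villus class had the highest Sox9 level (0.829 and 0.994), above the Wif1 side in both libraries. The Fibin type alone had a lower mean Sox9 level than the Adamts18-positive class, and their library values overlapped.

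Id2 was in 44.4% and 42.8% of the Wif1 side, 46% and 48.3% of the Adamts18-negative class and 50% and 54% of the Adamts18-positive class. The Wif1 side was lower by 0.12 ± 0.04 (limma adjusted p = 0.0256). The call was lost in 4 of 9 alternative fits, without the library block, on the classes of the comparison alone, on the log2 scale and in cells of 5000 to 10000 UMIs (adjusted p 0.0123 to 0.587). Between Adamts18-positive and Adamts18-negative cells Id2 differed by 0.08 ± 0.06, which did not pass the test (adjusted p = 0.16).

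Among the 41 other factors tested, 6 were higher and 5 lower on the Wif1 side. Etv1, an ETS factor, was higher by 0.58 and Zeb1, a zinc finger repressor of epithelial genes, by 0.45, while Msc, a basic helix-loop-helix factor, differed by -0.37 and Tbx3, a T-box repressor, by -0.21. In Adamts18-positive cells 10 of the 41 were higher and 5 lower. Tcf4 (0.51) and Foxf2 (0.40), a forkhead factor of gut mesenchyme, were higher, and Hes1 (-0.37), a repressor induced by Notch, and Maf (-0.28) lower. The pattern most like that of Foxs1 was shown by Dio2, Chrd and Col23a1 (r = 0.979, 0.976 and 0.958 over 14 means).

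Within classes, Foxl1 and Sox6 were found together more often than the product of their shares in the Adamts18-negative class. There, 88.6% and 86.5% of cells with Foxl1 held Sox6, against 56.5% and 57.5% of cells without Foxl1. Median totals were 10563 and 8562 UMIs with Foxl1 and 10786 and 7677 without. On the Wif1 side and in the Adamts18-positive class, where nearly all cells held Sox6, the observed number was close to the product (ratios 1.01, 1.02, 0.963 and 0.994). At 2000 UMIs the ratio in the Adamts18-negative class was 0.978 (4 cells) and 1.26 (68 cells).

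The pair was also found in cells outside the subepithelial classes. In the villus class 4 and 45 cells held both Foxl1 and Sox6, where the product of the shares gives 1.31 and 11. In library 2, 29.4% of Foxl1-positive villus cells held Sox6, against 6.18% of the others. Sox9 went the other way: 47 villus cells of library 2 held both Sox6 and Sox9, where the product gives 78.9, and 1 did in library 1, where it gives 6.64. Sox9 was likewise less frequent in Sox6-positive cells than in Sox6-negative cells of the Adamts18-negative class in library 2 (16.8% against 29.9%), but not in library 1 (18.3% against 18.1%). Whether 2 cells in one droplet give such pairs was not tested.

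The third question was which factors distinguish the Inmt/Penk class. Prrx1, Ebf2 and Wt1 were each in 12.7% to 25.9% of its cells and in at most 3.39% of any other class, and Id2 was also higher there. Prrx1 is a paired-related homeobox factor of limb and craniofacial mesenchyme, Ebf2 a factor of adipose and bone lineage cells, and Wt1 a zinc finger factor of kidney, gonad and mesothelium. Of the 9 factors tested, these 4 were called higher and none lower, in a comparison with the Fibin type, crypt and villus classes in which 39.4% of genes were called, 22.5% higher and 16.9% lower. The fit on these classes alone also called Foxl1 and Sox6, both lower (adjusted p = 0.0101 and 0.0171). The direction of Prrx1, Ebf2 and Wt1 here follows in part from the filter, which they passed in this class only.

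Prrx1 had a UMI in 15.4% and 25.9% of the Inmt/Penk cells, at 0.346 and 0.605 UMIs per 10,000. In the crypt, villus and Fibin classes it lay between 0 and 0.0551. The difference was 0.21 ± 0.08 (SD of 2 libraries; limma, adjusted p = 3.15e-05). Ebf2 had a UMI in 16% and 19.9% of the cells, at 0.643 and 0.693 UMIs per 10,000, and lay between 0 and 0.043 in those 3 classes. Its difference was 0.24 ± 0.02 (adjusted p = 1.8e-07). No Adamts18-positive cell of either library held Ebf2, 0 of 18 and 0 of 176, which allows up to 16.7% and 1.7%. Wt1 had a UMI in 12.7% and 16.9%, at 0.351 and 0.441 UMIs per 10,000, and differed by 0.17 ± 0.03 (adjusted p = 3.68e-07). Prrx1 shares its strand and part of its position with the gene models Gm26523 and Gm37644 in GENCODE M21, so that some of its reads may be missing.

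For these 3 factors the Inmt/Penk class lay above every other class in both libraries, and the other 6 classes mostly overlapped with their neighbours. By the mean of both libraries, the next highest class was the Adamts18-negative class for Prrx1 (0.0533 and 0.0299 UMIs per 10,000) and Ebf2 (0.0665 and 0.0325), and the villus class for Wt1 (0.0326 and 0.0376). In library 2 alone the Fibin type (0.0551) and the villus class (0.0364) were above the Adamts18-negative class for Prrx1, and the villus class (0.043) for Ebf2. At 2000 UMIs per cell, Prrx1 was kept in 5.94% and 10.2%, Ebf2 in 10% and 10%, and Wt1 in 6.88% and 6.03% of the Inmt/Penk cells, and none of the 3 was above 1.05% in another class. Immune-marker cells held Prrx1 and Ebf2 in 1 of 78 cells each in library 2 and Wt1 in none.

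**Figure D3:**
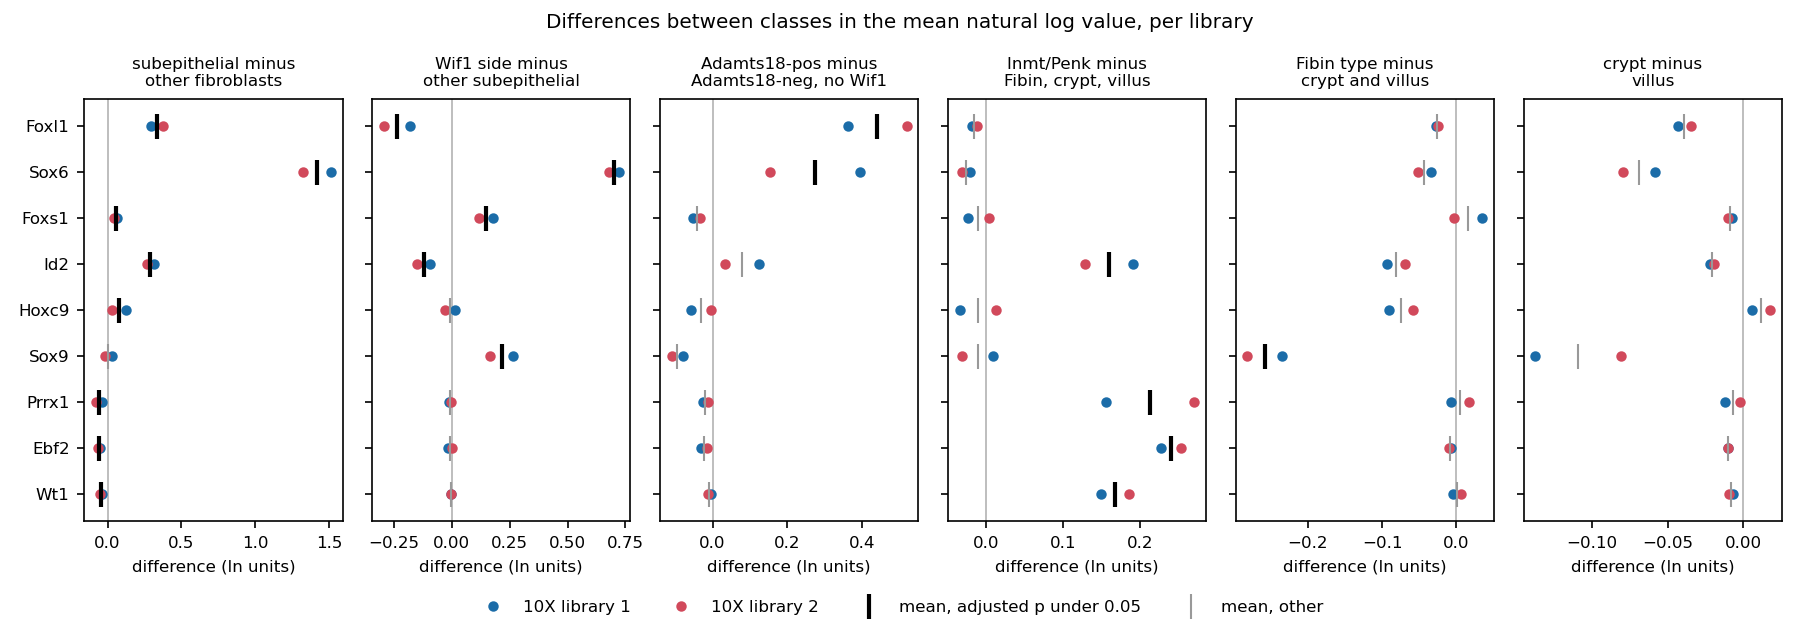
Difference in mean natural log value (x axis, one scale per panel) of the 9 factors tested (y axis) in the 6 comparisons. Points are the libraries and ticks their mean, black where limma's adjusted p is under 0.05. Both libraries lie on one side of 0 at every black tick.

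Each of these factors was most frequent in cells that held all 4 class genes. Among the cells that are not subepithelial, Ebf2 was in 0.621% of cells of library 1 with none of Inmt, Penk, Vit and Scara5, in 0.475% with 1, in 0.993% with 2, in 6.25% with 3 and in 33.6% with all 4. In library 2 these shares were 0.493%, 0.955%, 2.06%, 10.8% and 35.3%. Prrx1 went from 0% and 0.312% with none to 29.3% and 43.2% with all 4, and Wt1 from 0.207% and 0.411% to 25.9% in both. Depth rose too, from a median of 7338.5 to 10460 UMIs in library 1 and from 5840 to 8183 UMIs in library 2. The class genes were counted at full depth, so that their number still depends on depth. With the factors alone thinned to 2000 UMIs, the shares with all 4 genes were 13% and 17.6% for Prrx1 and 21.7% and 17.4% for Ebf2. For Wt1 they were 12.2% and 8.44%.

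**Figure D4:**
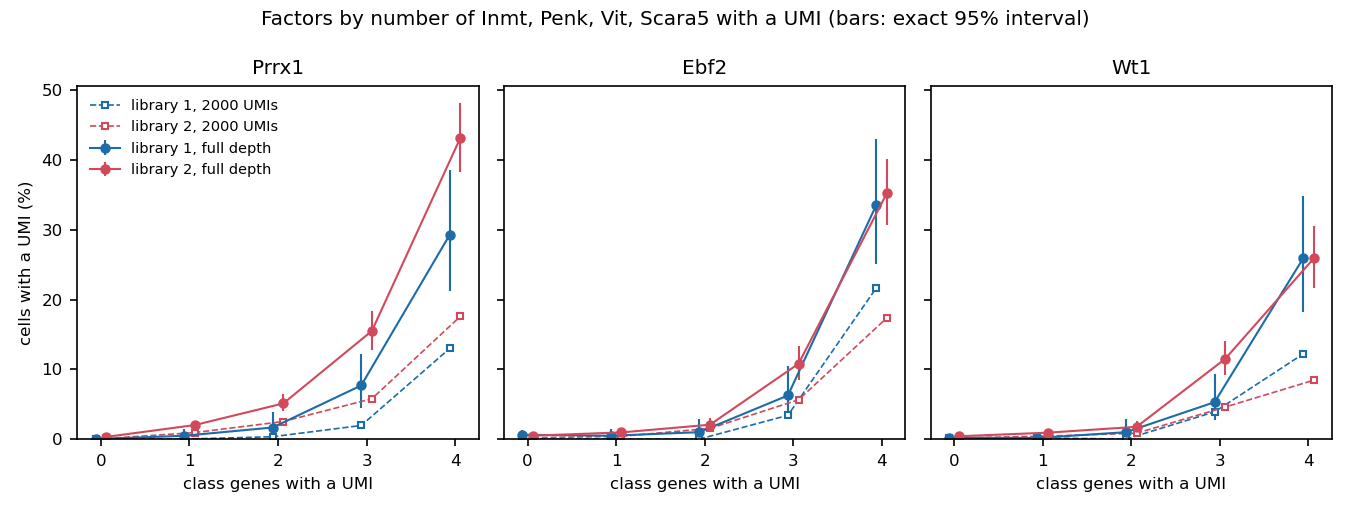
Share of cells with a UMI (percent, y axis) of Prrx1, Ebf2 and Wt1 against the number of Inmt, Penk, Vit and Scara5 with a UMI (x axis), in cells that are not subepithelial. Filled points are full depth with exact 95% intervals. Open squares are the factors thinned to 2000 UMIs in cells with at least that total, with the class genes counted at full depth. Each share is highest with all 4 genes.

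Of the other factors, Id2 and Hand1 were also most frequent with all 4 genes in both libraries, whereas Foxl1, Sox6 and Sox9 were not. Foxl1 and Sox6 were in at most 0.59% and 2.96% of the cells with 3 or 4 class genes. Id2 went from 21.7% and 26.2% of cells with none to 44% and 45.4% with all 4, and Sox9 was in 25.1% and 27.1% of cells with none and in 20.7% and 25.7% with all 4. Hand1 was in 7 of 116 and 7 of 405 cells with all 4, and in 0 of 208 and 6 of 678 with 3.

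Prrx1, Ebf2 and Wt1 were found in the same cells more often than the product of their shares. In the Inmt/Penk class of library 1, 28 cells held both Ebf2 and Wt1 where the product gives 6.58, and in library 2 there were 109 where it gives 36.5. Prrx1 and Ebf2 were together in 28 and 119 cells (product 8.02 and 55.8), and Prrx1 and Wt1 in 20 and 83 (product 6.33 and 47.3). Of cells with Ebf2, 53.8% and 50.5% held Wt1, against 4.78% and 8.54% of cells without Ebf2. In library 1, cells with Ebf2 were shallower than those without (median 8651 against 10229.5 UMIs), and in library 2 deeper (8429.5 against 7895). At 2000 UMIs all 3 pairs remained above the product in both libraries, the lowest ratio being 1.51 for Prrx1 and Wt1 in library 2. Pairs with other factors also exceeded the product there, such as Prrx1 and Id2 (ratios of 3.63 and 1.7, from 11 and 32 cells) and Prrx1 and Hoxc9 (4.81 and 1.75, from 2 and 5 cells), so that the excess is not particular to these 3 factors.

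At least 1 of the 3 factors was seen in 84 of 324 and 429 of 1083 Inmt/Penk cells (25.9% and 39.6%), and all 3 in 17 and 61. In the crypt class at least 1 was seen in 0.593% and 2.25% of cells, and in the villus class in 2% and 2.95%. The rest of the Inmt/Penk cells, 74.1% and 60.4%, showed none, which at this depth does not separate cells without these factors from cells with few copies.

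Id2 was at 1.11 and 1.12 UMIs per 10,000 in the Inmt/Penk class, above the crypt (0.686 and 0.837), villus (0.77 and 1.02) and Fibin (0.401 and 0.704) classes in both libraries. The difference was 0.16 ± 0.04 (SD of 2 libraries; limma, adjusted p = 0.00255). Among the 41 other factors, 12 were higher and 7 lower. Ebf1, the paralog of Ebf2, was higher by 1.25 and Id3, a paralog of Id2, by 0.66. Hoxc8, a neighbour of Hoxc9 in the HoxC cluster, differed by -0.35 and Tcf4 by -0.29.

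Gata6, a zinc finger factor of gut mesoderm and endoderm, had the pattern most like that of Ebf2 (r = 0.998 over 14 means), with 0.155 and 0.174 UMIs per 10,000 in the Inmt/Penk class and at most 0.0208 elsewhere. Tmeff2 (r = 0.995) and Wt1 (r = 0.992) followed. For Wt1 the genes were Smpd3, Ebf2 and Gata6 (r = 0.995, 0.992 and 0.991), and for Prrx1 they were Efhd1, Wt1 and Smpd3 (r = 0.987, 0.982 and 0.981). Id2 was followed most closely by Pcsk6, Rbp4 and Cav2 (r = 0.939, 0.933 and 0.904).

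The last question was how the Fibin, crypt and villus classes differ. In the fit of all classes Sox9 was the 1 factor of the 9 tested that was called, low in the Fibin type, and none of the 9 was called between crypt and villus. Both counts were larger in other fits, which are given with them. Sox9 had a UMI in 5.15% and 6.33% of the Fibin type, 19.6% and 25.8% of the crypt class and 28.9% and 30.3% of the villus class. Its level in the Fibin type, 0.0707 and 0.146 UMIs per 10,000, was below that of the crypt (0.532 and 0.777) and villus (0.829 and 0.994) classes in both libraries. The difference was -0.26 ± 0.03 (SD of 2 libraries; limma, adjusted p = 4.69e-05), in a comparison in which 54.1% of genes were called, 26.6% higher and 27.5% lower. At an unadjusted p under 0.05 there were 3 factors. On the log2 scale Foxl1, Sox6, Hoxc9 and Id2 were also called lower in the Fibin type (adjusted p = 0.0189, 0.00776, 0.00846 and 0.0155). The fit on these classes alone called 6 of 9, Sox9, these 4 and Ebf2 (adjusted p = 0.0369), all lower. Id2 passed in 4 of 8 alternative fits. The gene with the pattern most like that of Sox9 was Igfbp5 (r = 0.922 over 14 means), followed by the chemokines Ccl8 and Ccl11.

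Between crypt and villus 0 of 9 factors were called by limma, with 18.9% of all genes called (12.6% higher, 6.29% lower), and 1, Sox9, had an unadjusted p under 0.05. Sox9 in the crypt class differed from the villus class by -0.14 and -0.08 in the libraries (adjusted p = 0.0592, 0.00506 to 0.143 in the alternatives). Foxl1 and Sox6 differed by -0.04 and -0.07 (adjusted p = 0.777 and 0.765). In UMIs per 10,000 their villus levels lay above the crypt levels in both libraries, 0.0835 and 0.0783 against 0.00864 and 0.0128 for Foxl1 and 0.201 and 0.361 against 0.0111 and 0.0885 for Sox6. Both were called in 2 of 8 alternative fits, the log2 scale and the fit on these classes alone. The latter called 6 of 9 factors, all lower in the crypt class: Foxl1, Sox6, Sox9, Ebf2, Wt1 and Foxs1 (adjusted p = 0.000403, 0.000523, 0.00506, 0.0148, 0.0328 and 0.0372), among 919 genes called against 372.

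Among the 41 other factors, 9 were higher and 17 lower in the Fibin type than in the crypt and villus classes. Meis2 was higher by 1.55 and Hand2, the paralog of Hand1, by 0.43, while Id3 differed by -0.90 and Hes1 by -0.71. In the crypt class 5 of the 41 were higher and 8 lower than in the villus class. Ebf1 (0.52) and Meis2 (0.50) were higher, and Tcf4 (-0.38) and Sox4 (-0.31) lower.

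Hoxc9 was found in all classes and differed between the libraries in several of them. Its level was 2.81, 2.28 and 1.43 times higher in library 1 than in library 2 on the Wif1 side, in the Adamts18-negative and in the Adamts18-positive class, and 1.3 and 1.51 times higher in the crypt and villus classes. In the Inmt/Penk class it was lower in library 1, at 0.116 against 0.158 UMIs per 10,000. Its library values overlapped between neighbouring classes from the highest, the Adamts18-negative class (0.488 and 0.214), down to the crypt class (0.247 and 0.189). The Inmt/Penk and Fibin classes lay below (0.0743 and 0.0656 in the Fibin type). Hoxc9 shares its strand and part of its position with Hoxc5 in GENCODE M21, so that reads of the overlap may be missing. Its pattern was most like those of H2-Q6, Rgl3 and Nfkbie (r = 0.899, 0.896 and 0.845 over 14 means).

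Hand1, a basic helix-loop-helix factor of heart and extraembryonic lineages, was seen in 54 of all 10X cells. Of these, 20 were in the Inmt/Penk class (7 and 13 cells, 2.16% and 1.2%), 8 in the crypt class, 7 in the Fibin type, 5 in subepithelial classes, 4 in the villus class and 10 in no class. Its levels were between 0 and 0.0271 UMIs per 10,000 and overlapped between all neighbouring classes. In the Inmt/Penk class 5 of the 7 and 10 of the 13 Hand1-positive cells also held Wt1, where the product of the shares gives 0.886 and 2.2. Shares this low are not above what 0 of 78 immune-marker cells allow.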

How the data were processed

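Cells sorted as CD45-negative, EpCAM-negative, CD31-negative and PDPN-positive were measured by the authors as 2 10X libraries (Cell Ranger 3.1.0, GRCm38) and 2 Smartseq2 plates. The deposited values are natural logs: the authors divided by the cell's total, multiplied by 10000, added 1 and took the natural log, and then integrated the 2 platforms. The 10X values are not corrected, since 100% were whole UMIs (tolerance 0.01) once rescaled, and UMIs per 10,000 and totals (medians 8757 and 6874) were taken back from them. The 739 Smartseq2 cells carry corrected values and were left out. The last gene row ends early and was dropped (1 row), and later genes are not analysed here.

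Mean natural log values per library and class (at least 10 cells) were tested with limma 3.58.1 (R 4.3.3, mean trend, library as block, 6 residual degrees of freedom), with Benjamini-Hochberg adjustment at 0.05 over 1970 genes above 0 in at least 5% of the cells of a class. The 14 genes of the class rule were left out. Classes of one library share its preparation, which pairs them by library. The test was tried on simulated cells with 2-fold changes. For the subepithelial against other fibroblasts and the Adamts18-positive against Adamts18-negative comparison, 11.7% and 16.7% of its calls were false. Both shares are more than the threshold promises. In the second of these comparisons 55% of the changed genes were recovered. Values are mean ± SD of the 2 libraries. Shares of cells were also taken at 2000 UMIs (seed 7). A count of 0 was limited at 3 counts. No doublet caller was run. Levels of the glial marker list and of cells chosen by it are not reported here. Positions are of GENCODE M21 and promoters of RefSeq GRCm38.p6. Software was matplotlib 3.10.9, scipy 1.17.1, pandas 2.3.3 and numpy 2.4.6 under Python 3.11.15.

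The members, the classes and the list of 98 other factors were chosen with earlier results of these data known. Named were all 10 factors, for each tested factor the 3 genes of highest Pearson r over the 14 means, and of the other factors the 2 of largest difference per direction among those past the threshold with one sign in both libraries. Alternatives tried were no filter, no replicate block, the classes of a comparison alone, no mean trend, log2 of the mean plus 0.1, cells of 5000 to 10000 UMIs, class genes at 2 or more UMIs, no cells with 3 or more markers of immune, glial, smooth muscle, endothelial or epithelial cells (cells with pericyte markers, 2452 in all, stayed in), no cells with both Wif1 and Adamts18, and each library left out. The Inmt/Penk class with all 4 class genes was added after the data were seen.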

Additional observations from a re-analysis of the deposited data

Results flagged for a closer look

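The comparisons use cells of the 7 classes. Among cells with at least 3 markers of another cell type, 2 factors were above the upper limit of the interval in every class. Wt1 was in 15 of 17 cells with mesothelial markers (88.2%, exact interval 63.6 to 98.5%), against an upper limit of 17.9% for the highest class. Msln, Upk3b and Lrrn4 were each in 94.1% of these cells, but they are among the markers by which the cells were chosen, so that this share was largely set by the choice. Of the 17 cells, 10 were in no class. Wt1 was also in 11 of 17 cells with epithelial markers (64.7%, 38.3 to 85.8%). These sets share 11 cells, since Krt8 and Krt19 are on both lists. None of the mesothelial-marker cells held Prrx1.

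Hand1 was in 15 of 29 cells with markers of interstitial cells of Cajal (51.7%, 32.5 to 70.6%) and in 3 of 17 cells with mesothelial markers (17.6%, 3.8 to 43.4%), against an upper limit of 2.84% for the highest class. Of the 29 cells, 27 were in library 2 and 13 in no class. No difference between groups was tested for these cells.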

How the results depend on the processing

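Of 54 differences of a factor in a comparison, 20 passed the threshold, all with one sign in both libraries, and 18 of these passed in every alternative fit. The other 2 were Sox6 between the Adamts18-positive and Adamts18-negative classes and Id2 on the Wif1 side. With class genes at 2 or more UMIs the first reversed (-0.3364). The cause was not tested. Library 1 is not in that fit for the Adamts18-positive class, nor in the fit of cells of 5000 to 10000 UMIs, so that what passed there for this class, Foxl1 included, rests on library 2. Of the 34 differences that did not pass, 16 passed in at least 1 alternative. Without the replicate block, which treats the libraries as unpaired, 1431, 442, 411, 686, 1007 and 292 genes were called in the 6 comparisons in the order of the text, against 1482, 509, 522, 777, 1066 and 372 with it, and among the factors Id2 on the Wif1 side lost its call. Counts stayed within 1.5 times of these in all alternatives except the fit on the crypt and villus classes alone, which called 919 genes. On the log2 scale the split of calls moved to 235 higher and 261 lower on the Wif1 side (298 and 211 before), 223 and 444 in Adamts18-positive cells (301 and 221), 410 and 454 in the Inmt/Penk class (444 and 333) and 149 and 182 in the crypt class (248 and 124), and the median of all genes in the Adamts18-positive comparison was -0.12. Leaving out a library leaves 1 mean per class, so that no test was possible. The class of highest share was the same in both libraries for 9 factors, and in the Inmt/Penk class all 3 pairs of Prrx1, Ebf2 and Wt1 exceeded the product. The rare factors rest on few positive cells, 54 for Hand1, and the part of depth in this was not tested. The 18 Adamts18-positive cells of library 1 limit every value of that class.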

Other observations

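In cells with at least 3 mesothelial markers, Sox6 was in 10 of 17 (58.8%, exact interval 32.9 to 81.6%), of which 5 were in no class and 5 in a fibroblast class.

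Sox9 was in 20.9% of 258 cells with smooth muscle markers. Foxl1 was in 15.1% of the smooth muscle-marker cells (39 of 258). Id2 was in 26.4% of 87 immune-marker cells and in 13 of 29 cells with markers of interstitial cells of Cajal (44.8%).

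Each cell of the Wif1 side held a median of 2.5 (library 1) and 2 (library 2) of the 10 factors, and each cell of the Fibin type a median of 0 in both libraries. No factor had a UMI in 69.1% and 64.4% of the Fibin type, against 0% and 1.61% of the Wif1 side. Median totals were 8610 and 7187 UMIs in the Fibin type and 12106 and 9833 UMIs on the Wif1 side, and the part of depth in this was not tested.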
